A study of Mus musculus with 212 samples.

Results

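The glucocorticoid receptor gene Nr3c1 and 9 genes that handle its ligand, feed back on it or respond to it (Hsd11b1, Fkbp5, Tsc22d3, Sgk1, Klf9, Zbtb16, Dusp1, Cebpd and Errfi1) were followed in cultured mouse skin fibroblasts. They are the rows of the deposited expression table whose Ensembl identifiers map to these 10 symbols, among 47631 genes in all. Poly(A) RNA was sequenced from C57BL/6 cultures that were WT or Bmal1-/-, that is, without a working copy of the clock factor BMAL1. All cultures, of both genotypes, were grown to confluence and given 100 nM dexamethasone, a synthetic glucocorticoid, for 15 min, washed, and kept in constant darkness. Harvests began 48 h after the dexamethasone, and no culture without dexamethasone is among the groups, so every level below is a level after a glucocorticoid pulse.

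The libraries form 10 time courses, 5 per genotype. The WT AM, WT PM, Bmal1-/- AM and Bmal1-/- PM courses each have 17 time points, from CT0 to CT48 every 3 h. The labels do not explain AM and PM, and the series text gives 37 °C as the incubation temperature. The WT and Bmal1-/- courses at 37, 32 and 27 °C each have 24 time points, from CT0 to CT46 every 2 h. Each time point is 1 library. The cultures had 3 wells per time point and genotype, and the labels do not say whether wells were pooled or how many cell preparations stand behind a genotype. The spread used below is therefore the one among the libraries of a course, and a p-value carries no information on how preparations vary. Each genotype has 1 course per temperature, so a temperature cannot be told apart from the culture or run that carried it, and the same holds for a genotype and its preparation.

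The glucocorticoid receptor is a nuclear receptor that waits in the cytoplasm in a complex with HSP90 and co-chaperones. Once it binds cortisol, corticosterone or dexamethasone it moves to the nucleus, where it binds response elements and raises or lowers transcription. In fibroblasts a short dexamethasone pulse is widely used to set cell clocks to a common time, because the receptor switches on clock genes such as Per1. The clock acts back on this pathway, since CRY proteins, whose genes BMAL1 and its partner CLOCK drive through E-box sequences, can repress the receptor.

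In 2 libraries the values go against the labels. At CT14 of the 27 °C courses, the p21 gene Cdkn1a was 109 FPKM in the library labelled WT and 3.87 FPKM in the library labelled Bmal1-/-, whereas the other WT libraries at 27 °C spanned 3.07 to 7.12 FPKM and the other Bmal1-/- libraries 97.8 to 136 FPKM. This pair was left out, which leaves 210 libraries. Estimated depth ran from 9.92 to 32.34 M reads per library, with a median of 23.65 M reads. The predicted gene Gm26377 took 18.84 to 34.15% of all summed FPKM at 32 °C and at most 2.51% elsewhere. Fibroblast genes were abundant in these cultures (mean over all libraries 5357 FPKM for Col3a1, 2244 FPKM for Dcn and 1386 FPKM for Vim). Markers of other cell types were summed per library. The sum of 6 keratinocyte markers ran from 1.03 to 6.34 FPKM, led by Trp63, Cdh1 and Krt10 with Krt5 near 0. The sum of 5 endothelial markers ran from 0.960 to 6.69 FPKM, led by Kdr and Tek with Cdh5 near 0. The macrophage, adipocyte and melanocyte sums, which also moved with temperature or genotype, are given beside those results. The muscle and lymphocyte sums were at most 0.444 and 0.375 FPKM. In bulk RNA, fewer cells that express a gene and less RNA per cell cannot be told apart.

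All 10 genes were read in every library. FPKM is scaled to transcript length, so levels may be set side by side between genes. By course mean, Sgk1, Fkbp5, Cebpd, Tsc22d3 and Errfi1 lay between 17.6 and 201 FPKM. Nr3c1, Klf9 and Dusp1 lay between 12.4 and 35.96 FPKM, Hsd11b1 between 1.68 and 23.3 FPKM, and Zbtb16 between 0.121 and 3.59 FPKM. Zbtb16 passed the filter for testing (the average in a fit had to reach 1 FPKM) through its level in Bmal1-/- cells, since its WT course means were at most 1.00 FPKM. It is therefore a gene that had to differ in order to be tested.

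**Figure D1:**
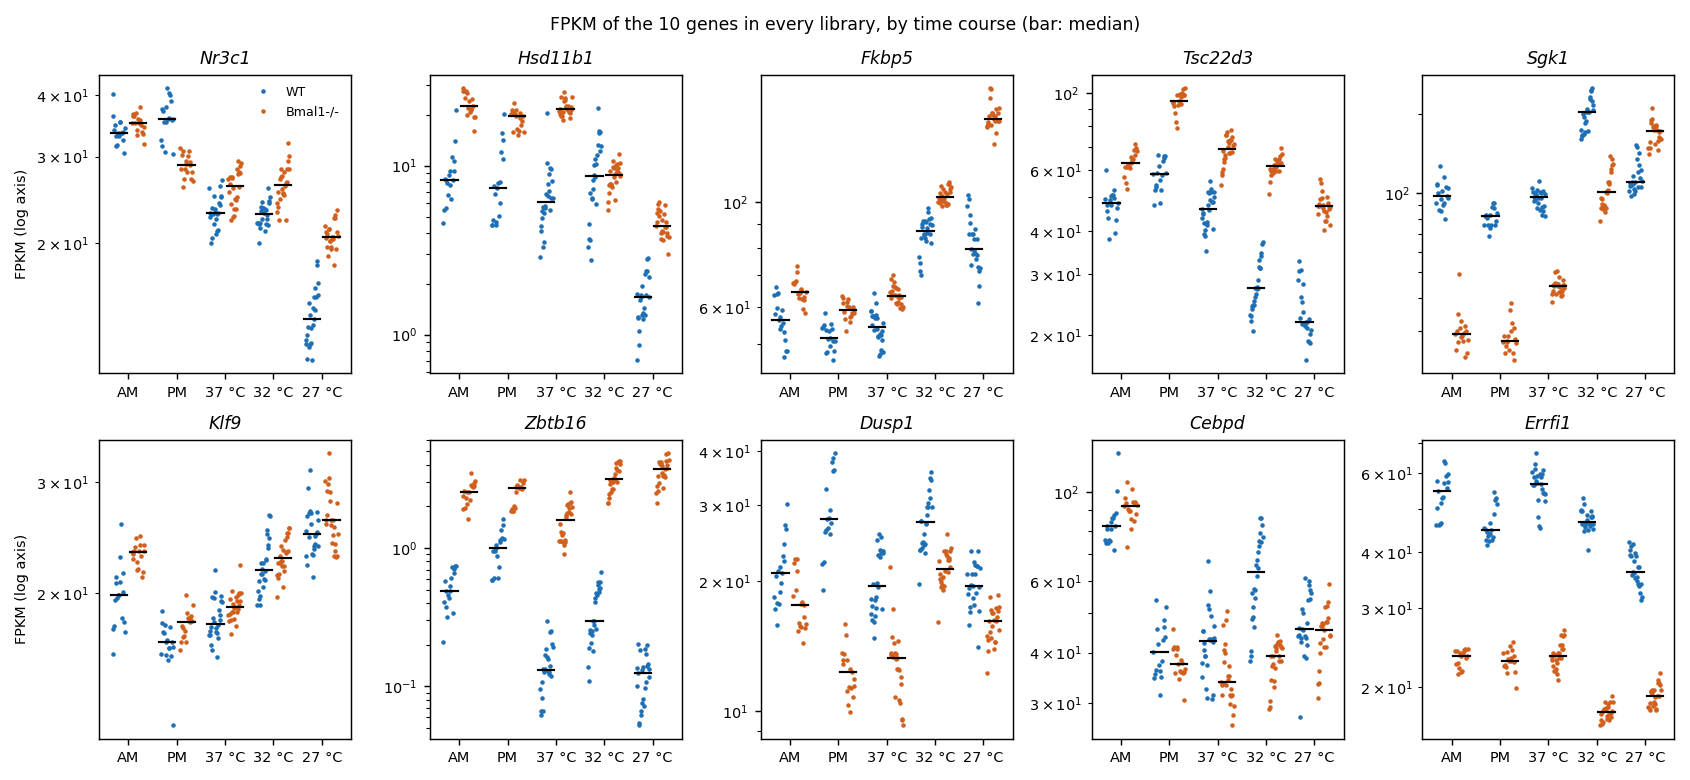
FPKM of each of the 10 genes (log axis) in every library, by time course; blue points are WT, orange points Bmal1-/- libraries in order of time, and black bars are medians. Errfi1 and Sgk1 sit lower in Bmal1-/- cells in AM, PM and at 37 °C, and Zbtb16 sits higher in every course.

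Nr3c1 itself (ENSMUSG00000024431, chromosome 18, 39410545 to 39519421, GRCm38) differed by under 2-fold between the genotypes in all 5 settings. In WT AM it spanned 30.5 to 40.1 FPKM with a median of 33.5, and in Bmal1-/- AM 31.8 to 37.8 FPKM with a median of 35.1. At 37 °C the WT libraries spanned 20.1 to 26.9 FPKM (median 23.01) and the Bmal1-/- libraries 22.3 to 29.4 FPKM (median 26.2). The widest gap was at 27 °C, where WT spanned 11.6 to 18.4 FPKM (median 14.03) and Bmal1-/- 18.1 to 23.4 FPKM (median 20.6), so that the ranges barely met. The genotypes overlapped in all 5 settings. The Bmal1-/- minus WT difference on the log2(FPKM + 1) scale was between -0.31 in PM and 0.51 at 27 °C, so Nr3c1 was called in none of the 5 genotype comparisons, where a call needs an adjusted p under 0.05 (limma, Benjamini-Hochberg over all genes tested) and at least a 2-fold difference. It passed the adjusted p alone in 4 of the 5.

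By course mean, Nr3c1 ran from 14.3 ± 1.90 FPKM (SD, n = 23) in WT at 27 °C, through 20.8 ± 1.29 (n = 23) in Bmal1-/- at 27 °C, to 35.96 ± 3.28 (n = 17) in WT PM. Between them the order was WT at 32 °C (22.9), WT at 37 °C (23.2), Bmal1-/- at 37 °C (25.99), Bmal1-/- at 32 °C (26.3), Bmal1-/- PM (28.8), WT AM (33.9) and Bmal1-/- AM (35.0). The 32 and 37 °C courses of a genotype were neighbours within their spread. In WT the difference between them was -0.02 ± 0.03 (SE) log2 with an adjusted p of 0.529, and in Bmal1-/- 0.02 ± 0.03 with an adjusted p of 0.552, a sign that turned to -0.12 under another scaling of the columns.

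Between the genotypes, Errfi1 was lower in Bmal1-/- cells in AM and at 37 and 32 °C, and Sgk1 in AM, PM and at 37 °C. Hsd11b1 was higher in AM, PM and at 37 and 27 °C, Tsc22d3 was higher at 32 and 27 °C, and Dusp1 was lower in PM. The level of Zbtb16, which the filter admits only through its Bmal1-/- level, is described without a test and left out of these counts. Its comparisons between temperatures and between PM and AM, its rhythms and its slopes are in the counts further below. Of 45 pairs of the other 9 genes and a setting, 13 were called. In AM, 3 of the 9 were called, against 14.6% of all genes tested: 1 was higher in Bmal1-/- (6.86% of all genes) and 2 lower (7.78%). In PM 3 were called against 15.6%, with 1 higher (7.35%) and 2 lower (8.23%). At 37 °C 3 were called against 14%, with 1 higher (6.22%) and 2 lower (7.73%). At 32 °C 2 were called against 14.5%, with 1 higher (6.93%) and 1 lower (7.56%), and at 27 °C 2 against 13.5%, both higher (6.38%, with 7.08% of all genes lower). Median differences of the 9 genes were 0.13, -0.11, 0.07, -0.02 and 0.51 log2 in that order, where the median of all genes tested lay between -0.02 and 0.02.

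The summed markers of other cell types also differed between the genotypes. The median sum of 5 adipocyte markers, among them Pparg and Fabp4, was 9.73 FPKM in WT AM and 32.8 FPKM in Bmal1-/- AM, and 18.9 and 35.1 FPKM at 37 °C, but 25.6 and 18.5 FPKM at 27 °C. The median sum of 5 melanocyte and Schwann cell markers lay between 5.67 and 16.96 FPKM in the WT courses and between 0.223 and 0.541 FPKM in the Bmal1-/- courses. Its largest member was Mlana, while Tyr, Dct and Sox10 were near 0. The part of these in the genotype differences was not tested.

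Hsd11b1 (ENSMUSG00000016194, chromosome 1, 193221634 to 193264075) encodes the enzyme that regenerates active glucocorticoid from its inert 11-keto form inside the cell. At 37 °C it spanned 2.87 to 20.6 FPKM with a median of 6.10 in WT, and 18.6 to 27.3 FPKM with a median of 21.7 in Bmal1-/-. The groups overlapped through 1 WT library, CT24, and Bmal1-/- was higher at 24 of 24 time points. The difference was 1.62 ± 0.07 log2 (SE, adjusted p = 6.11e-43), a ratio of means of 3.21.

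In AM, Hsd11b1 spanned 4.58 to 21.4 FPKM (median 8.24) in WT and 16.1 to 28.8 FPKM (median 22.7) in Bmal1-/-. The difference there was 1.35 ± 0.09 log2 (adjusted p = 1.35e-20). The ranges met at the end of the course, where the WT library at CT48 held 21.4 FPKM and the Bmal1-/- library 19.3 FPKM. In PM the ratio of means was 2.23 (adjusted p = 2.34e-18), with Bmal1-/- higher at 16 of 17 time points and an overlap through the WT libraries at CT39 and CT48. At 27 °C Hsd11b1 was low in both genotypes, 0.708 to 2.85 FPKM in WT and 3.01 to 6.10 FPKM in Bmal1-/-, without overlap (1.06 ± 0.08, adjusted p = 2.12e-26). With the CT14 pair included as labelled, that difference was 0.96, under the 2-fold limit. At 32 °C the genotypes overlapped throughout (2.77 to 22.1 FPKM in WT, 5.45 to 11.7 FPKM in Bmal1-/-). The difference there was -0.02 ± 0.07 with an adjusted p of 0.830.

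Fkbp5 (ENSMUSG00000024222, chromosome 17, 28399094 to 28517527), which encodes the HSP90 co-chaperone FKBP51 that lowers the receptor's affinity for hormone and is induced by the receptor, was higher in Bmal1-/- at every time point of all 5 settings, but in none by 2-fold. At 27 °C it spanned 61.1 to 104 FPKM (median 79.7) in WT and 133 to 175 FPKM (median 150) in Bmal1-/-, without overlap. The difference of 0.90 ± 0.02 log2 stayed under the 2-fold limit of a call, with an adjusted p of 1.18e-70. Its other 4 differences lay between 0.18 and 0.26 log2, each with an adjusted p under 0.05.

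Tsc22d3 (ENSMUSG00000031431, chromosome X, 140539528 to 140600659) encodes GILZ, a leucine zipper protein through which glucocorticoids dampen inflammatory signalling. At 32 °C it spanned 20.5 to 37.1 FPKM (median 27.3) in WT and 51.0 to 69.2 FPKM (median 61.6) in Bmal1-/-. The libraries did not overlap, and the difference was 1.11 ± 0.03 log2 (adjusted p = 1.12e-70). At 27 °C its highest WT library held 32.7 FPKM and its lowest Bmal1-/- library 40.3 FPKM, again apart, with a difference of 1.01 ± 0.03 (adjusted p = 3.24e-65) that was 0.95 with the CT14 pair included as labelled. In AM, at 37 °C and in PM Tsc22d3 was higher in Bmal1-/- by 0.40, 0.56 and 0.69 log2, under the 2-fold limit, and at every time point.

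Sgk1 (ENSMUSG00000019970, chromosome 10, 21882184 to 21999903) encodes the serum- and glucocorticoid-regulated kinase, which acts on ion channels and cell survival. Its promoter at one of its start sites is shown because it was the only one of 15 promoters, from the 7 of the 10 genes found in the RefSeq promoter table for GRCm38.p6, that held the receptor's response element. The motif searched was AGAACA, 3 bases of any kind and TGTTC, on either strand, which 0.0487% of 32851 promoters of the same length held. The looser form, GNACA, 3 bases of any kind and TGTNC, found in 0.475% of promoters, matched the same place. The third motif, the E-box CACGTG bound by CLOCK and BMAL1, was in 7.15% of promoters and in 1 promoter each of Sgk1, Dusp1 and Fkbp5. Each sequence runs 5′ to 3′ on the gene's strand, from 250 bases before the start site to 50 bases after it, with the matches in capitals. The Sgk1 promoter is chr10:21993640-21993939 (plus strand), inside the annotated gene, with the response element at -189 and the E-box at -246 from the start site. The Dusp1 promoter is chr17:26508423-26508722 (minus strand) with its E-box at -126, and the Fkbp5 promoter is chr17:28486100-28486399 (minus strand) with its E-box at -169. A match describes these letters only, and binding was not measured.
Sgk1: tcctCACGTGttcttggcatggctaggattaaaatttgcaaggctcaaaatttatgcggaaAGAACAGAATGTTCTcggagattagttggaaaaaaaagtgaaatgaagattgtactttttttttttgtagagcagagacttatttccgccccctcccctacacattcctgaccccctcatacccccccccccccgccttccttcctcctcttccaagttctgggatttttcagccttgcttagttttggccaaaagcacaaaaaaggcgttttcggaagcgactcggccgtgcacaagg
Dusp1: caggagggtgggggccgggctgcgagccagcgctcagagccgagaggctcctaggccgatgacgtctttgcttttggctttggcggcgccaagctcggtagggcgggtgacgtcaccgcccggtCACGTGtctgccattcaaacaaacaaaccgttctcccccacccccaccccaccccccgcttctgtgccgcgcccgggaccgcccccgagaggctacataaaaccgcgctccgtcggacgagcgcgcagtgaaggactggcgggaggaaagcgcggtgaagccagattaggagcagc
Fkbp5: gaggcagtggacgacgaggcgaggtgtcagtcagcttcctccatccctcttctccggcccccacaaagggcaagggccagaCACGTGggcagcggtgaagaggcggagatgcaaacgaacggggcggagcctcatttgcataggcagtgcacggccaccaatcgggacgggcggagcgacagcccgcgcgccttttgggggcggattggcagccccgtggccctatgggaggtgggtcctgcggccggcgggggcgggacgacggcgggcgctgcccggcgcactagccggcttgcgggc

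Sgk1 had the largest fall of the members in Bmal1-/- cells in AM and PM, while Errfi1 fell more at 37 and 32 °C. The Errfi1 promoters searched held none of the motifs, and a link between motifs and levels was not tested. In AM Sgk1 spanned 79.8 to 126 FPKM (median 97.3) in WT and 23.8 to 49.1 FPKM (median 29.2) in Bmal1-/-. The libraries did not overlap, and the difference was -1.69 ± 0.06 log2 (adjusted p = 1.18e-34), a ratio of means of 0.303. In PM it spanned 68.7 to 91.6 FPKM (median 82.2) in WT and 23.3 to 38.3 FPKM (median 27.5) in Bmal1-/-, a difference of -1.49 ± 0.06 (adjusted p = 6.82e-32). At 37 °C the ranges were 81.6 to 111 FPKM and 38.5 to 50.4 FPKM, again without overlap (-1.09 ± 0.03, adjusted p = 6.22e-59). At 32 °C the difference of -0.95 ± 0.03 was just under the 2-fold limit. At 27 °C the sign turned, with 97.7 to 153 FPKM in WT against 140 to 210 FPKM in Bmal1-/- and a difference of 0.56 ± 0.04.

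Klf9 (ENSMUSG00000033863, chromosome 19, 23141226 to 23168134), a Krüppel-like transcription factor induced by glucocorticoids, was nearly level between the genotypes. At 37 °C it spanned 15.8 to 21.7 FPKM (median 17.9) in WT and 17.2 to 22.1 FPKM (median 18.97) in Bmal1-/-. Its differences lay between 0.04 and 0.21 log2 and none was called. The ranges overlapped in all 5 settings.

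Zbtb16 (ENSMUSG00000066687, chromosome 9, 48654297 to 48836222) encodes the zinc finger repressor PLZF, a strong target of glucocorticoids in many cells. At 27 °C it spanned 0.0525 to 0.202 FPKM (median 0.125) in WT and 2.12 to 4.83 FPKM (median 3.76) in Bmal1-/-. The libraries did not overlap, and the ratio of means was 29.7. At 37 °C the ranges were 0.0618 to 0.295 FPKM and 0.912 to 2.55 FPKM, with a ratio of means of 10.8. The ratios of means were 8.97 at 32 °C, 4.87 in AM and 2.498 in PM. On the log2 scale the PM difference was 0.80 with the pseudocount of 1 FPKM and 1.26 with one of 0.1 FPKM, since the larger one compresses such low values. Bmal1-/- was higher at every time point of all 5 settings.

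Dusp1 (ENSMUSG00000024190, chromosome 17, 26505590 to 26562128) encodes the phosphatase MKP-1, which switches off p38 and JNK. In PM it spanned 19.1 to 39.4 FPKM (median 27.8) in WT and 9.96 to 15.9 FPKM (median 12.3) in Bmal1-/-. The libraries did not overlap, and the difference was -1.17 ± 0.05 log2 (adjusted p = 1.12e-30). In the other 4 settings the ranges overlapped and the differences lay between -0.63 and -0.23, not called.

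Cebpd (ENSMUSG00000071637, chromosome 16, 15887286 to 15891031), which encodes the transcription factor C/EBPδ, was called in no genotype comparison. The largest of its differences was -0.69 ± 0.05 log2 at 32 °C, where it spanned 38.1 to 86.3 FPKM (median 63.4) in WT and 29.0 to 44.3 FPKM (median 39.3) in Bmal1-/-. Bmal1-/- was lower at 24 of 24 time points there, and the ranges overlapped.

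Errfi1 (ENSMUSG00000028967, chromosome 4, 150853919 to 150868892) encodes MIG6, an inhibitor of the EGF receptor. It was lower in Bmal1-/- in every library pair. At 37 °C it spanned 45.3 to 66.5 FPKM (median 56.9) in WT and 20.8 to 26.9 FPKM (median 23.5) in Bmal1-/-. The difference was -1.21 ± 0.02 log2 (adjusted p = 4.55e-88). At 32 °C it was -1.37 ± 0.02 (adjusted p = 3.33e-94) and in AM -1.18 ± 0.03 (adjusted p = 3.27e-42). In PM (-0.97) and at 27 °C (-0.89) the difference was just under the 2-fold limit, and the genotypes overlapped in none of the 5 settings.

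**Figure D2:**
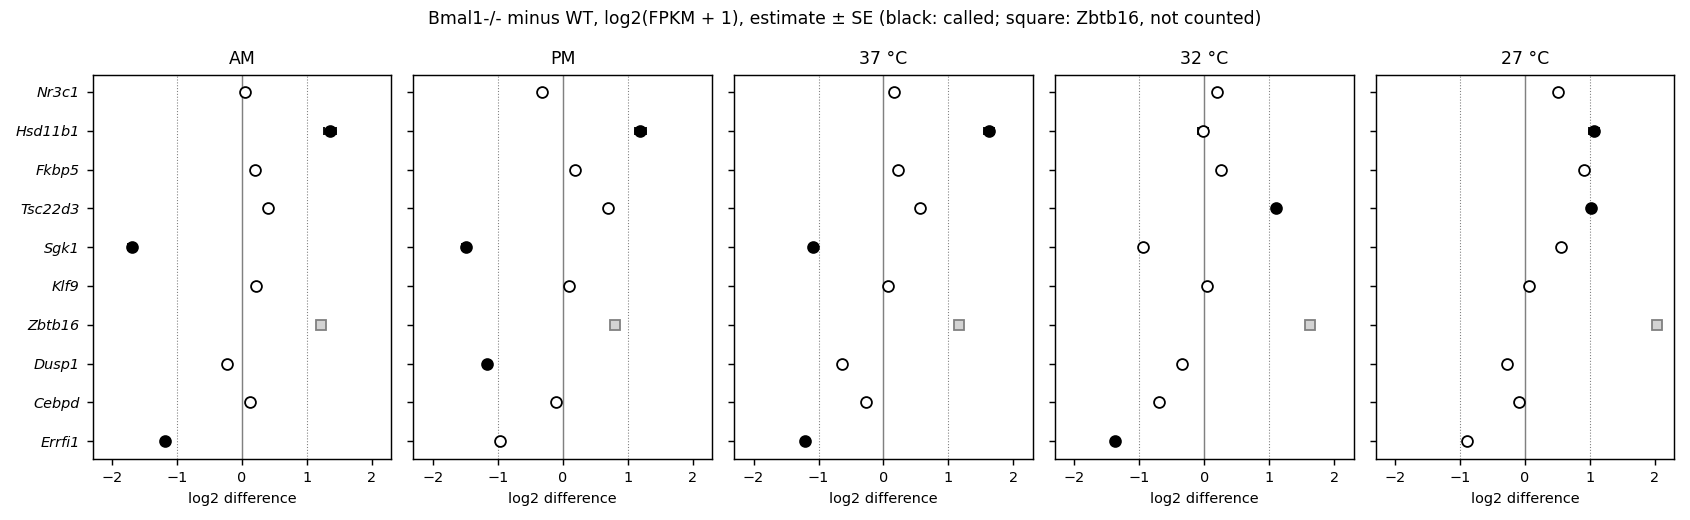
Bmal1-/- minus WT difference of each gene in log2(FPKM + 1) (x axis) in the 5 settings, with SE bars; filled points were called, grey squares mark Zbtb16, which was not counted, and dotted lines mark 2-fold. Sgk1 moves from -1.69 in AM to 0.56 at 27 °C, and Hsd11b1 from 1.62 at 37 °C to -0.02 at 32 °C.

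Temperature was compared within each genotype, 27 or 32 °C against 37 °C. In Bmal1-/- cells Sgk1 was higher and Hsd11b1 lower at both 32 and 27 °C, and Fkbp5 was higher at 27 °C. In WT cells Hsd11b1 was lower at 27 °C and Sgk1 higher at 32 °C. In all, 7 of 40 pairs of gene and comparison were called. The pairs include Zbtb16, which was not called. In Bmal1-/- it averaged 1.57 FPKM at 37 °C and 3.59 FPKM at 27 °C. That difference was 0.83 log2 with the pseudocount of 1 FPKM, and 1.15 and called with one of 0.1 FPKM. At 27 °C 1 gene was called in WT against 13.7% of all genes tested, and 3 in Bmal1-/- against 11.7%. At 32 °C 1 was called in WT against 3.32%, and 2 in Bmal1-/- against 2.74%. The median of all genes tested was itself shifted, by 0.21 log2 at 27 °C in both genotypes and by 0.13 at 32 °C, and the differences below are to be read against these shifts. The median sum of 5 macrophage markers also moved, from 7.65 FPKM at 37 °C to 32.5 FPKM at 27 °C in WT and from 2.06 to 25.8 FPKM in Bmal1-/-. Cd68 led it, with a mean of 30.6 FPKM in WT at 27 °C, while Ptprc and Adgre1 were near 0, and its part in the temperature differences was not tested.

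Sgk1 in Bmal1-/- cells spanned 38.5 to 50.4 FPKM (median 44.4) at 37 °C, 78.5 to 139 FPKM (median 101) at 32 °C and 140 to 210 FPKM (median 172) at 27 °C. The 3 ranges did not overlap. The differences from 37 °C were 1.21 ± 0.03 log2 at 32 °C (adjusted p = 8.29e-63) and 1.92 ± 0.04 at 27 °C (adjusted p = 3.53e-85), which are 1.08 and 1.71 above the median of all genes. In WT cells Sgk1 spanned 81.6 to 111 FPKM (median 96.4) at 37 °C, 161 to 251 FPKM (median 203) at 32 °C and 97.7 to 153 FPKM (median 110) at 27 °C. The WT difference was 1.07 ± 0.03 at 32 °C (adjusted p = 2.30e-57), which fell to 0.93 and under the limit when the columns were rescaled, and 0.27 ± 0.04 at 27 °C. WT Sgk1 was thus highest at 32 °C and Bmal1-/- Sgk1 highest at 27 °C.

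The change of Sgk1 from 37 to 27 °C was larger in Bmal1-/- than in WT by 1.64 ± 0.05 log2 (interaction, adjusted p = 3.02e-60). It was the 1 gene of the 10 called in that interaction, against 4.44% of all genes tested. With a pseudocount of 0.1 FPKM in place of 1, the interaction of Zbtb16 went from 0.87 to 1.31 and was called too. The WT means of Zbtb16 behind it were 0.146 FPKM at 37 °C and 0.121 FPKM at 27 °C. From 37 to 32 °C the corresponding value for Sgk1 was 0.14 ± 0.05, not called.

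Hsd11b1 in Bmal1-/- cells spanned 18.6 to 27.3 FPKM at 37 °C, 5.45 to 11.7 FPKM (median 8.77) at 32 °C and 3.01 to 6.10 FPKM (median 4.38) at 27 °C. Neither colder range reached the one at 37 °C. The differences were -1.26 ± 0.07 log2 at 32 °C (adjusted p = 1.08e-32) and -2.06 ± 0.08 at 27 °C (adjusted p = 1.13e-52). In WT cells Hsd11b1 was lower at 27 °C by -1.49 ± 0.08 (adjusted p = 3.17e-39), while at 32 °C the difference was 0.38 ± 0.07, not called. Hsd11b1 was the 1 gene of the 10 called in the interaction at 32 °C, with -1.64 ± 0.11 log2 (adjusted p = 6.85e-29), against 1.48% of all genes tested.

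Fkbp5 in Bmal1-/- cells spanned 59.4 to 70.0 FPKM (median 63.4) at 37 °C, 98.3 to 111 FPKM (median 103) at 32 °C and 133 to 175 FPKM (median 150) at 27 °C, without overlap. The difference at 27 °C was 1.25 ± 0.02 log2 (adjusted p = 1.35e-86), 1.05 above the median of all genes. In WT cells Fkbp5 differed from 37 °C by 0.66 ± 0.02 at 32 °C and 0.57 ± 0.02 at 27 °C, and in Bmal1-/- by 0.70 ± 0.02 at 32 °C, none of them called. Klf9 kept close to the same values in both genotypes, 0.45 and 0.44 log2 at 27 °C in WT and Bmal1-/-, and its interaction at 27 °C had an adjusted p of 0.923.

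Tsc22d3, Nr3c1 and Errfi1 had lower values at 27 °C than at 37 °C in WT, none of them called. In WT cells Tsc22d3 spanned 34.9 to 55.5 FPKM (median 46.1) at 37 °C, and at 27 °C had a median of 21.8 and a highest value of 32.7 FPKM, without overlap. The difference of -0.98 ± 0.03 log2 missed the 2-fold limit by little. It was -1.01 with a pseudocount of 0.1 FPKM and -1.22 after rescaling, both called. For Nr3c1 in WT cells the difference at 27 °C was -0.66 ± 0.03 and for Errfi1 -0.61 ± 0.02, and neither gene's 27 °C range met its range at 37 °C.

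**Figure D3:**
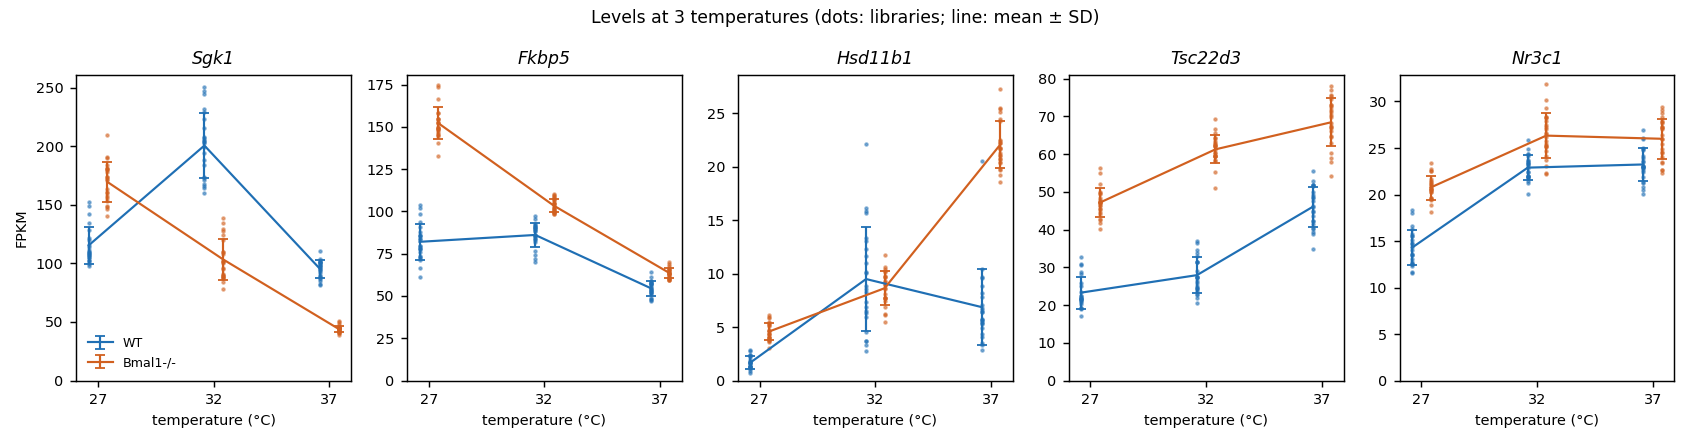
FPKM of 5 genes at 27, 32 and 37 °C (x axis); dots are libraries, lines join course means with SD bars, blue for WT and orange for Bmal1-/-. Sgk1 peaks at 32 °C in WT (mean 201 FPKM) and at 27 °C in Bmal1-/- (mean 170 FPKM), and Hsd11b1 in Bmal1-/- drops from 22.1 to 8.63 and 4.58 FPKM.

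The PM courses were set against the AM courses of the same genotype. Of the 10 genes 1 was called in WT, against 2.38% of all genes tested, and 1 in Bmal1-/-, against 1.16%. It was Cebpd each time. In WT cells Cebpd spanned 71.9 to 124 FPKM (median 82.1) in AM and 31.4 to 53.9 FPKM (median 40.1) in PM. In Bmal1-/- cells it spanned 73.0 to 106 FPKM (median 92.1) in AM and 30.6 to 45.7 FPKM (median 37.5) in PM. AM and PM did not overlap in either genotype, with differences of -1.01 ± 0.05 log2 in WT (adjusted p = 6.78e-27) and -1.24 ± 0.05 in Bmal1-/- (adjusted p = 4.75e-31). The 37 °C courses, with means of 42.7 and 35.6 FPKM, lay near the PM level of Cebpd. Dusp1 differed in opposite directions, by 0.44 ± 0.05 in WT and -0.49 ± 0.05 in Bmal1-/-, neither called.

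Levels also drifted over the sampled days. The drift was fitted as a straight line in each course beside the 24 h rhythm, in log2 units per 24 h, and called at an adjusted p under 0.05 with no limit on its size. Hsd11b1, Dusp1 and Cebpd rose in most WT courses, Zbtb16 rose in most courses of both genotypes, and Fkbp5 fell in most of the courses where it was called. Of 100 pairs of gene and course 54 were called, 39 rising and 15 falling. Taken as the second day minus the first day, 41 were called, with 13 of the 54 lost, among them Dusp1 in Bmal1-/- AM, Cebpd in WT AM and at 37 °C, and Zbtb16 in WT AM.

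In WT, 6 of the 10 genes were called in AM against 13.3% of all genes tested, 5 in PM against 17.4%, and 6 at 37 °C against 26.6%. At 32 °C 8 were called in WT against 30.2%, all 8 rising (14.9% of all genes rose), and at 27 °C 8 against 36.8%. In Bmal1-/-, 4 were called in AM against 7.52%, 1 in PM against 4.88%, and 6 at 37 °C against 37.2%. At 32 °C 6 were called in Bmal1-/- against 15.6%, all 6 rising (8.27% of all genes rose), and at 27 °C 4 against 23.2%.

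Hsd11b1 rose in all 5 WT courses and was called in 0 of 5 Bmal1-/- courses by limma, 2 of which had an unadjusted p under 0.05. In Bmal1-/- at 32 °C its slope of 0.24 log2 per 24 h had an adjusted p of 0.0837 (limma). Fitted there without the 24 h rhythm, the slope was 0.27 and was called (limma, adjusted p = 0.032). In WT PM Hsd11b1 was 4.47 FPKM at CT0, 7.38 at CT21 and 20.2 at CT48. In WT at 32 °C it was 3.29 FPKM at CT0, 8.60 at CT24 and 13.1 at CT46, with its highest value, 22.1 FPKM, at CT36. In Bmal1-/- AM, by contrast, it began at 27.7 FPKM and ended at 19.3 FPKM.

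The rise of Hsd11b1 in WT was 0.61 ± 0.11 log2 per 24 h in AM, 0.82 ± 0.11 in PM, 0.64 ± 0.10 at 37 °C, 0.99 ± 0.10 at 32 °C and 0.29 ± 0.10 at 27 °C, with adjusted p from 2.36e-15 at 32 °C to 0.0165 at 27 °C. The slopes in Bmal1-/- lay between -0.27 and 0.24. The difference in slope between the genotypes was tested after these slopes had been seen. It was called for Hsd11b1 in 5 of 5 settings, at -0.87 ± 0.15 in AM, -0.98 ± 0.15 in PM, -0.64 ± 0.14 at 37 °C, -0.75 ± 0.14 at 32 °C and -0.47 ± 0.14 at 27 °C. The adjusted p of these differences ran from 1.19e-05 in PM to 0.0147 at 27 °C. With the CT14 pair included as labelled, the WT slope at 27 °C was 0.17 (adjusted p = 0.267) and the difference there -0.24 (adjusted p = 0.300), neither called.

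Dusp1 rose in 4 of the 5 WT courses, by 0.33 ± 0.06 log2 per 24 h in AM, 0.37 ± 0.06 in PM, 0.34 ± 0.05 at 37 °C and 0.32 ± 0.05 at 32 °C. In Bmal1-/- it fell in AM (-0.19 ± 0.06) and at 37 °C (-0.32 ± 0.05) and rose at 32 °C (0.20 ± 0.05). At 37 °C Dusp1 went from 18.2 FPKM at CT0 to 23.2 at CT46 in WT and from 21.5 to 9.29 in Bmal1-/-. Bmal1-/- was above WT at 2 of 24 time points, CT0 and CT10, and its CT0 library was the highest of its course. These changes were not even. WT at 37 °C held 19.8 FPKM at CT22 and 24.9 FPKM at CT24, and Bmal1-/- AM 22.5 FPKM at CT15 and 15.3 FPKM at CT18. A straight line does not tell such a step from a slope. The difference in slope was -0.66 ± 0.07 at 37 °C (adjusted p = 3.70e-12), -0.53 ± 0.08 in AM (adjusted p = 5.18e-06) and -0.55 ± 0.08 in PM (adjusted p = 4.30e-06).

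Over all 10 genes, the difference in slope between genotypes was called for 3 in AM against 7.54% of all genes tested, 3 in PM against 6.37%, 5 at 37 °C against 23.7%, 3 at 32 °C against 12.1% and 6 at 27 °C against 15.7%. The 5 at 37 °C include Zbtb16, which had to differ in order to be tested. With a pseudocount of 0.1 FPKM its difference in slope there was not called (limma, adjusted p = 0.0703). Between PM and AM it was called for 1 gene in WT (Fkbp5, 0.15 ± 0.04) against 2.52% of all genes. In Bmal1-/- limma called 0 of the 10 against 0.0902%, with 2 at an unadjusted p under 0.05.

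**Figure D4:**
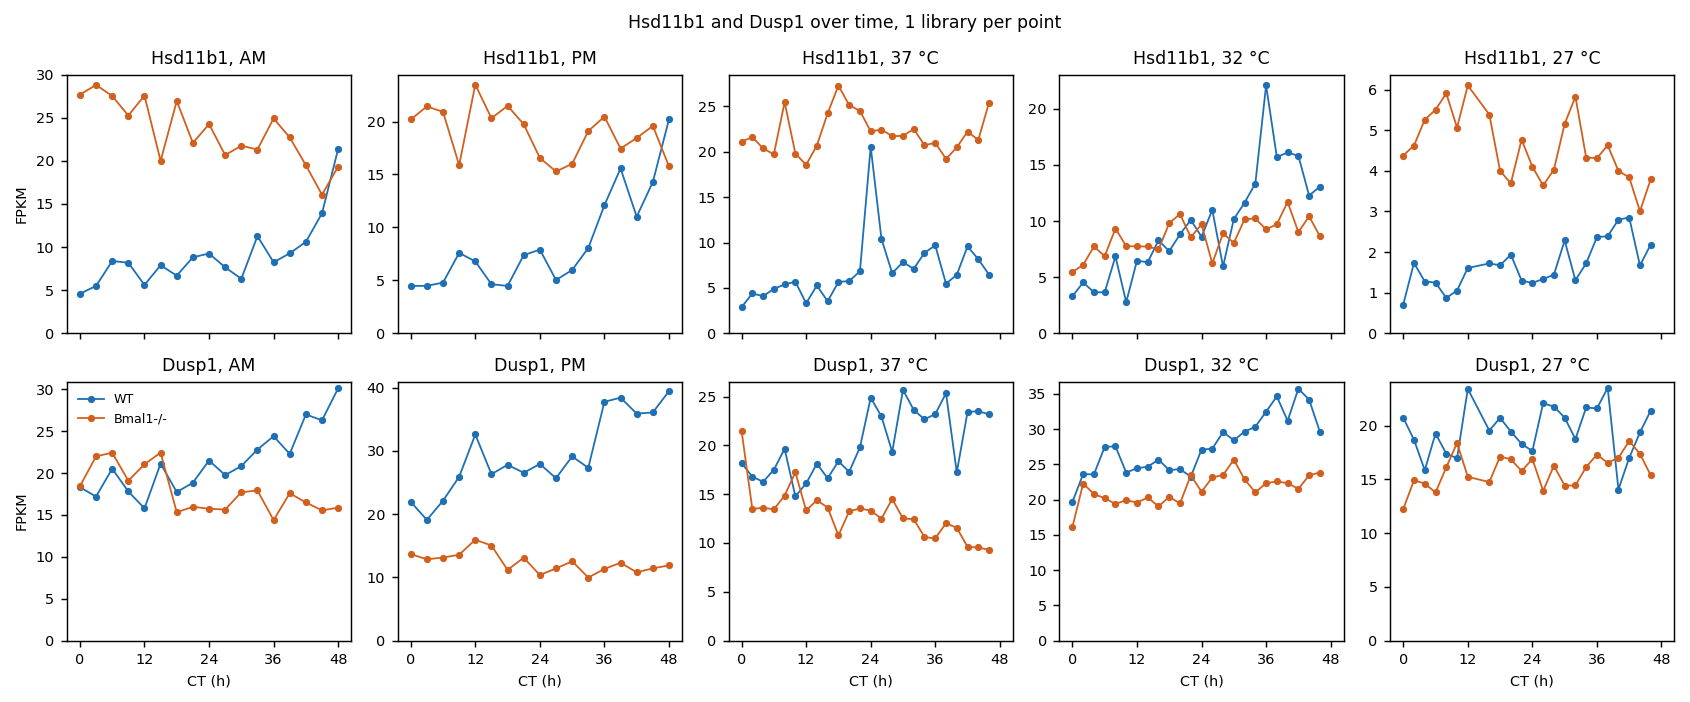
FPKM of Hsd11b1 (top) and Dusp1 (bottom) against circadian time in hours, 1 library per point, blue for WT and orange for Bmal1-/-. WT Hsd11b1 climbs through each course, to 20.2 FPKM at CT48 in PM, while Dusp1 at 37 °C ends at 23.2 FPKM in WT and 9.29 FPKM in Bmal1-/-.

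Zbtb16 rose in 5 of 5 Bmal1-/- courses, by 0.18 to 0.41 log2 per 24 h, and in WT in AM, PM and at 32 °C by 0.20 to 0.28. Cebpd rose in 4 of 5 WT courses, with 0.58 ± 0.07 at 32 °C. Its WT slope at 37 °C was 0.18, and 0.06 (adjusted p = 0.547) in a fit without the 24 h rhythm. Without the filter on low values its WT calls at 37 and 27 °C were both lost (adjusted p = 0.0603 and 0.0811), and after median-of-ratios scaling that at 27 °C was (adjusted p = 0.0518). Cebpd in Bmal1-/- rose at 32 and 27 °C and fell at 37 °C (-0.23 ± 0.07). Fkbp5 fell in WT AM (-0.19 ± 0.03), at 37 °C (-0.16 ± 0.03) and at 27 °C (-0.22 ± 0.03), rose in WT at 32 °C (0.11 ± 0.03), and fell in Bmal1-/- AM and at 37 °C (-0.09 ± 0.03 in each). Tsc22d3 in WT rose at 37 °C (0.23 ± 0.04) and 32 °C (0.38 ± 0.04) and fell at 27 °C (-0.34 ± 0.04), and in Bmal1-/- it rose in 3 courses and fell at 27 °C. As the second day minus the first day, its Bmal1-/- calls in AM and at 32 and 27 °C were lost. Their adjusted p were 0.0729, 0.216 and 0.0600 (limma). Without the 24 h rhythm in the fit, its fall at 27 °C was not called either (limma, adjusted p = 0.155). The second-day difference also lost the Fkbp5 calls in Bmal1-/- AM and at 37 °C (limma, adjusted p = 0.12 and 0.0677). Nr3c1 was called in 1 course of 10, WT at 27 °C, where it rose by 0.21 ± 0.04 (adjusted p = 1.64e-06).

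Daily rhythms of these genes were small. A 24 h cosine was fitted to each course and a rhythm called at an adjusted p under 0.05, with the amplitude given in log2 from mid-level to peak. Of 100 pairs of gene and course 12 were called, with amplitudes from 0.10 to 0.26. In WT, 2 genes were called in AM against 3.85% of all genes tested, 2 in PM against 5.61%, 4 at 37 °C against 4.92% and 1 at 27 °C against 2.15%. At 32 °C limma called 0 in WT against 0.253%, with 1 at an unadjusted p under 0.05. In Bmal1-/-, 1 gene was called at 37 °C against 8.46% and 2 at 27 °C against 9.85%. In AM (3.4%), in PM (3.02%) and at 32 °C (2.06%) limma called 0 in Bmal1-/-, with 1 gene at an unadjusted p under 0.05 in each.

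Tsc22d3 was called in WT AM, PM and at 37 °C. Its amplitude was 0.15 ± 0.03 log2 in AM with a peak at CT3.4 (adjusted p = 0.0101), 0.16 ± 0.03 in PM with a peak at CT17.2 (adjusted p = 0.00350), and 0.16 ± 0.03 at 37 °C with a peak at CT3.7 (adjusted p = 5.10e-04). In WT PM it was 47.4 FPKM at CT3, 66.4 at CT18, 48.0 at CT27 and 65.9 at CT42, and in WT AM 59.8 FPKM at CT3 and 37.9 at CT15. The fitted peak thus came 13.8 h later by time label in PM than in AM. The clock output gene Dbp, whose rhythm in the same WT courses had amplitudes of 0.79 and 0.70, peaked at CT23.7 in AM and CT11.6 in PM, 11.9 h apart, and at CT2.1 at 37 °C.

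The rhythms of the PM and AM courses of WT differed for 3 of the 10 genes, against 2.97% of all genes tested. The size of the difference was 0.30 ± 0.05 log2 for Tsc22d3 (adjusted p = 6.57e-05), 0.30 ± 0.07 for Cebpd (adjusted p = 0.0174) and 0.18 ± 0.04 for Errfi1 (adjusted p = 0.0210). In Bmal1-/- limma called 0 of the 10 in the same comparison against 0.368% of all genes, with 2 at an unadjusted p under 0.05. Cebpd was called in WT PM (amplitude 0.18 ± 0.05, peak CT15.7) and in WT at 37 °C (0.26 ± 0.05, peak CT3.9). Errfi1 was called in WT AM (0.13 ± 0.03, peak CT7.1) and at 37 °C (0.12 ± 0.02, peak CT11.7). Klf9 was called in WT at 37 °C (0.10 ± 0.03, peak CT18.3) and at 27 °C (0.12 ± 0.03, peak CT16.1).

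In Bmal1-/- cells the called rhythms were those of Zbtb16 at 37 °C (0.15 ± 0.03, peak CT6.0) and 27 °C (0.18 ± 0.03, peak CT15.8) and of Tsc22d3 at 27 °C (0.14 ± 0.03, peak CT14.4). Rhythms differed between the genotypes for 4 of the 10 genes at 37 °C, Cebpd (0.33 ± 0.08), Tsc22d3 (0.20 ± 0.04), Zbtb16 (0.17 ± 0.04) and Errfi1 (0.13 ± 0.03), against 6.1% of all genes tested. At 27 °C they differed for Zbtb16 (0.20 ± 0.05) and Fkbp5 (0.16 ± 0.04), against 1.5%. In AM and PM limma called 0 of the 10 against 0.113% and 0.0751% of all genes, with 2 at an unadjusted p under 0.05 in each, and at 32 °C 0 against 0.023%, with 0 at an unadjusted p under 0.05. Zbtb16 is in these counts only through its Bmal1-/- level. In WT it averaged 0.146 FPKM at 37 °C and 0.121 FPKM at 27 °C, values that log2(FPKM + 1) compresses. With a pseudocount of 0.1 FPKM its rhythm difference at 27 °C was 0.30 (limma, adjusted p = 0.244), not called. Fitted without the straight line, 7 rhythms were called in place of 12, with 8 of the 12 lost and 3 gained, and 2 rhythm differences in place of 9. All 4 genotype differences at 37 °C were lost (limma, adjusted p from 0.246 to 0.857). Those of Zbtb16 at 27 °C and of Cebpd and Errfi1 between WT PM and AM were lost as well. The 2 that stayed were Tsc22d3 between WT PM and AM and Fkbp5 at 27 °C. The Fkbp5 difference was lost with a period of 22 h (limma, adjusted p = 0.168). Lost in WT at 37 °C were the rhythms of Tsc22d3 (amplitude 0.10, adjusted p = 0.389), Cebpd and Klf9. Errfi1 in WT AM, Cebpd in WT PM and Klf9 in WT at 27 °C were lost too. In Bmal1-/- the losses were Zbtb16 at 37 °C (0.04, adjusted p = 0.929) and Tsc22d3 at 27 °C (0.10, adjusted p = 0.360). The Zbtb16 rhythm in Bmal1-/- at 27 °C was lost with a pseudocount of 0.1 FPKM (0.23, adjusted p = 0.0777). With a period of 22 h the rhythm of Tsc22d3 in WT AM was lost (0.11, adjusted p = 0.0671).

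**Figure D5:**
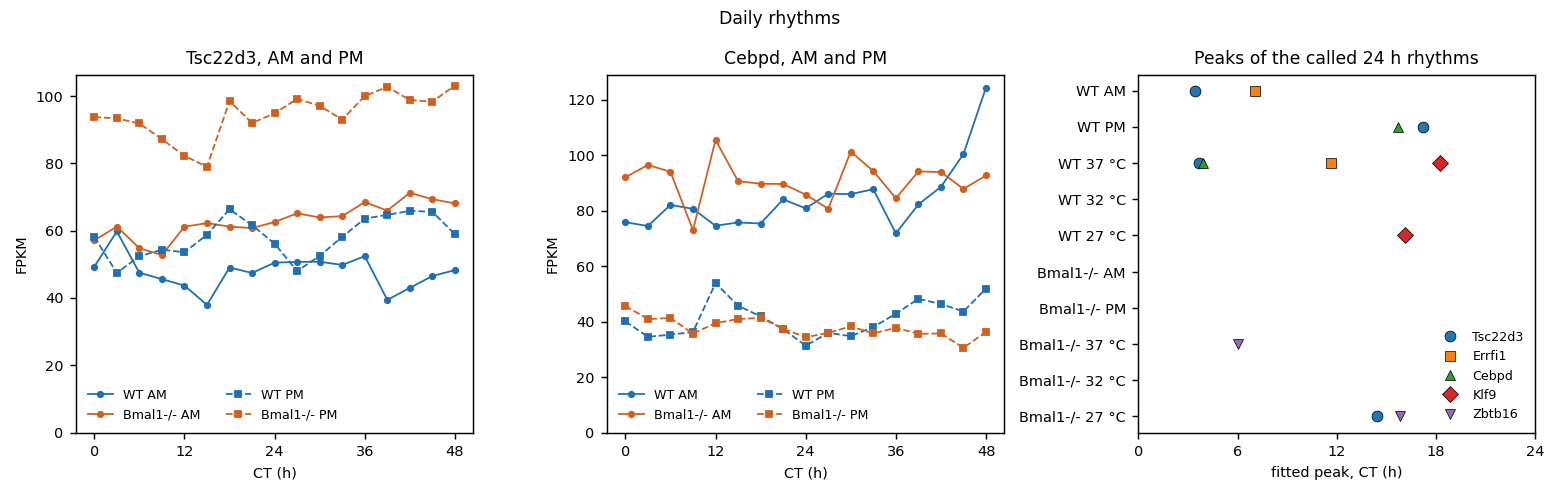
Left and middle, FPKM of Tsc22d3 and Cebpd against circadian time in hours in AM (circles, solid) and PM (squares, dashed) for WT (blue) and Bmal1-/- (orange), 1 library per point; right, fitted peak times of the 12 called rhythms by course. WT Tsc22d3 peaks at CT3.4 in AM and CT17.2 in PM, and no gene has a mark in Bmal1-/- AM or PM.

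Library by library, the genes moved together only loosely once each course's mean was taken off. Over the 210 libraries, of which those of a course share its culture series, Pearson's r was 0.59 for Hsd11b1 and Cebpd, 0.55 for Dusp1 and Cebpd and 0.53 for Hsd11b1 and Dusp1. These 3 genes each rose in at least 4 of the 5 WT courses. For Nr3c1 and Fkbp5 it was -0.15. In WT at 37 °C the library at CT24 held the highest value of the course for Hsd11b1 (20.6 FPKM), Cebpd (67.2 FPKM), Sgk1 (111 FPKM) and Zbtb16 (0.295 FPKM). Leaving that library out changed no call of the 10 genes that its fit had made. It added the rise of Hsd11b1 in Bmal1-/- at 32 °C (0.24 log2 per 24 h, limma, adjusted p = 0.0386). The difference in slope of Zbtb16 between the genotypes at 27 °C was added too (0.15, limma, adjusted p = 0.0484).

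Over the 10 course means, r was 0.84 for Fkbp5 and Klf9, 0.78 for Hsd11b1 and Tsc22d3, and -0.90 for Zbtb16 and Errfi1. Among 11352 genes, those whose course means were most like Nr3c1 were Etnk1 (r = 0.979, n = 10 courses), Ino80 (0.970) and Zfp280b (0.968). For Hsd11b1 they were Irf2 (0.952), Hdhd3 (0.949) and Tpp1 (0.948), and for Tsc22d3 C2cd5 (0.987), Phyhd1 (0.978) and Mrm1 (0.978). With 10 points and so many genes these are descriptions only.

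Other genes of the pathway were read from 4 lists of 88 symbols, of which 87 were in the table. Of 19 tested chaperones and cofactors of the receptor, limma called 0 between genotypes in AM and 1 or 2 in each other setting, although 15 to 17 had an unadjusted p under 0.05. That is 5.26% in PM and at 37 °C and 10.5% at 32 and 27 °C, where 13.5 to 15.6% of all genes tested were called. Those called were the chaperone gene Hspa8, higher in Bmal1-/- at 27 °C (1.53 ± 0.02 log2) and 32 °C (1.43 ± 0.02), its regulator Bag1, lower at 27 °C (-1.11 ± 0.02) and 32 °C (-1.05 ± 0.02), and the corepressor gene Nrip1, higher at 37 °C (1.29 ± 0.04) and in PM (1.14 ± 0.03). In the cold 2 were called, Bag1 (1.19 ± 0.02) and Hsp90ab1 (1.04 ± 0.02), both higher in WT at 27 °C, and neither after rescaling of the columns. That is 10.5% of the list, beside 13.7% of all genes tested. In the other temperature comparisons it was 0%, where 2.74 to 11.7% of all genes were called.

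Of 8 genes that handle steroids 4 were tested. H6pd, which supplies the NADPH used by the Hsd11b1 enzyme, averaged 121 ± 6.84 FPKM (SD, n = 24) in WT at 37 °C and 46.2 ± 6.52 (n = 23) at 27 °C, and fell by 1.38 ± 0.03 on the log2 scale (adjusted p = 1.42e-74). In Bmal1-/- it averaged 80.9 ± 4.54 at 37 °C and 62.2 ± 5.41 at 27 °C, and the interaction was 1.01 ± 0.04. Hsd11b2, the enzyme that inactivates glucocorticoid, had course means of at most 0.132 FPKM and was not tested.

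Of 36 other induced targets tested in AM, 6 were higher and 7 lower in Bmal1-/-, and in PM 7 were higher and 10 lower. Of 35 tested at each temperature, 6 were higher and 10 lower at 37 °C, 4 and 8 at 32 °C, and 4 and 8 at 27 °C, with list medians between -0.10 and 0.12 log2. In either direction this is 36.1% in AM, 47.2% in PM, 45.7% at 37 °C and 34.3% at both 32 and 27 °C, beside 13.5 to 15.6% of all genes tested. The transcription factor gene Klf4 had a mean of 15.1 ± 1.88 FPKM (SD, n = 17) in WT AM, against 79.2 ± 9.94 in Bmal1-/- AM (2.32 ± 0.05 log2, SE). Ddit4, an inhibitor of mTORC1, averaged 13.4 ± 4.37 FPKM (n = 24) in WT at 37 °C and 71.5 ± 11.4 in Bmal1-/- (2.39 ± 0.04). Rgs2, a brake on G protein signalling, averaged 74.9 ± 6.00 FPKM in WT at 32 °C and 2.03 ± 0.50 in Bmal1-/- (-4.66 ± 0.06), and Crispld2 was lower in AM (-3.08 ± 0.05). From 37 to 27 °C, 28.6% of the list were called in WT and 20% in Bmal1-/-, beside 13.7 and 11.7% of all genes. From 37 to 32 °C it was 2.86 and 8.57%, beside 3.32 and 2.74%. Angptl4, a lipoprotein lipase inhibitor, averaged 35.1 ± 8.35 FPKM in WT at 37 °C and 0.479 ± 0.273 (n = 23) at 27 °C (-4.62 ± 0.06). The genes of this list were thus split in direction, as the 10 were.

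Of 16 tested genes that glucocorticoids repress, most of them inflammatory or matrix-degrading, 1 was higher in Bmal1-/- in each setting, and 7 were lower in AM, 6 in PM, 6 at 37 °C, 4 at 32 °C and 6 at 27 °C. In either direction this is 50% in AM, 43.8% in PM, at 37 and at 27 °C, and 31.2% at 32 °C, beside 13.5 to 15.6% of all genes. By direction, 7.08 to 8.23% of all genes were lower. The list median lay between -0.75 and -0.32 log2. Mmp3, a matrix metalloproteinase, averaged 819 ± 107 FPKM (SD, n = 24) in WT at 37 °C and 10.9 ± 1.36 in Bmal1-/- (-6.11 ± 0.05 log2, SE). The chemokine gene Cxcl5 averaged 92.5 ± 27.6 FPKM and 10.6 ± 1.77 in the same courses (-2.96 ± 0.05). From 37 to 27 °C, 43.8% of the list were called in WT and 62.5% in Bmal1-/-, beside 13.7 and 11.7% of all genes. From 37 to 32 °C it was 18.8 and 0%, beside 3.32 and 2.74%. Between PM and AM 5 were lower in WT (31.2% of the list, beside 2.38% of all genes called) and 4 in Bmal1-/- (25%, beside 1.16%), and 0 were higher. Ccl2 had a mean of 227 ± 18.3 FPKM (n = 17) in WT AM, against 81.4 ± 9.87 in WT PM. Lcn2, from the list of induced targets, differed by -3.94 ± 0.08 log2 in WT. Cebpd, with its higher level in AM, differed between AM and PM in the same direction as these.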

How the data were processed

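The authors deposited FPKM values per gene. Per the submitters' processing notes, reads were processed with TopHat2 2.1.0, TopHat and Cuffdiff on GRCm38, and per the labels' protocols libraries were stranded and poly(A) selected. For the annotation and for any scaling across libraries: not given in the sources used here. Identifiers were matched to symbols by a gene name table (47217 of 47631) and to GENCODE M21 coordinates.

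Values were transformed as log2(FPKM + 1), which understates changes of low genes, and genes averaging 1 FPKM or more were fitted with limma 3.58.1 in R 4.3.3 (eBayes with an intensity trend), separately for the AM and PM courses (68 libraries, 13307 genes) and the temperature courses (142 libraries, 13031 genes). Each course had an intercept, a linear term and a 24 h cosine and sine. Levels and slopes had two-sided tests and rhythms an F test, with Benjamini-Hochberg adjustment over all genes of a fit. Drift was also taken as the second day minus the first day. The fits were also run on simulated data with independent normal errors and no steps or drifts between neighbouring libraries. That run says nothing on how such steps affect the p-values.

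The steps between low FPKM values in 1357 single-transcript genes of at least 1500 bp gave each library's depth, and 94.5% of these values were whole reads to a tolerance of 0.15. The estimate gives no counts, so no counting intervals were computed. No column was left out of the table except the 27 °C pair at CT14.

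The members and lists were chosen with earlier results of these data known. Named were all 10 members, up to 4 called genes per list with the largest change or smallest p (of which the text gives some), and the 3 genes most like Nr3c1, Hsd11b1 and Tsc22d3. Hsd11b2, Cdkn1a, Gm26377 and the cell markers were named in addition, after their values were seen.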

Additional observations from a re-analysis of the deposited data

Results flagged for a closer look

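These values are tested differences between courses in temperature response, rhythm or drift, each from limma over all genes. The response of Sgk1 to 27 °C differed between genotypes by 1.645 log2, and that of Hsd11b1 to 32 °C by -1.64. The rhythm differed between WT PM and WT AM by 0.2998 log2 for Tsc22d3, 0.2962 for Cebpd and 0.1841 for Errfi1. Between the genotypes at 37 °C it differed by 0.3261 for Cebpd, 0.2022 for Tsc22d3, 0.1716 for Zbtb16 and 0.1305 for Errfi1, and at 27 °C by 0.1956 for Zbtb16 and 0.1561 for Fkbp5. Without the linear term, only the rhythm differences of Tsc22d3 between WT PM and AM and of Fkbp5 at 27 °C were still called. Zbtb16 had to differ in order to be tested. With a pseudocount of 0.1 FPKM in place of 1 its rhythm difference at 27 °C was not called (adjusted p = 0.244).

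The drift per 24 h differed between genotypes (Bmal1-/- minus WT) for Hsd11b1 by -0.8735 log2 in AM, -0.9805 in PM, -0.6358 at 37 °C, -0.7485 at 32 °C and -0.4705 at 27 °C, and for Dusp1 by -0.5264 in AM, -0.5454 in PM and -0.6642 at 37 °C. For Errfi1 it differed by -0.1708 in AM, 0.2067 at 37 °C and 0.2166 at 27 °C, and for Cebpd by -0.4093 at 37 °C and -0.343 at 32 °C. For Tsc22d3 it differed by -0.2619 at 32 °C and 0.2093 at 27 °C. Single differences were those of Zbtb16 at 37 °C (0.3388), Klf9 in PM (0.2007), and Sgk1 (-0.2193), Fkbp5 (0.1738) and Nr3c1 (-0.1889) at 27 °C. The Zbtb16 value rests on the pseudocount: with 0.1 FPKM in place of 1 it was 0.29 (adjusted p = 0.0703). With the CT14 27 °C libraries included its adjusted p was 0.104. With 0.1 FPKM the same difference at 32 °C went from 0.10, not called, to -0.38 (adjusted p = 0.0291). Between WT PM and WT AM the drift of Fkbp5 differed by 0.1514.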

How the results depend on the processing

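Of 822 checks of a single call under another setting, 736 kept the direction and the call, 83 kept the direction only and 3 turned. Rhythm calls depended most on the fit. Without the linear term 7 of the rhythm calls and 2 of the rhythm differences were counted, and with a period of 22 h 7 and 5, against 12 and 9. With the CT14 27 °C libraries included as labelled, the Zbtb16 rhythm in Bmal1-/- at 27 °C turned (amplitude 0.0735), as did the rhythm differences at 27 °C of Fkbp5 (0.0751) and Zbtb16 (0.280). The cause was not tested. The same inclusion ended 2 genotype calls, 5 rhythm calls, 9 drift calls, 5 differences in drift and 3 rhythm differences. The time points that genotypes share were also entered as a replicate block. The block left the counts at 17 genotype (4 of them Zbtb16), 2 course, 7 temperature and 2 interaction calls and changed no call. Leaving out the WT 37 °C library at CT24 and testing differences in drift were choices made after seeing the data. The second day minus the first day, tried in place of the slope, ended 13 drift calls and 3 differences in drift.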

Other observations

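The 27 °C libraries at CT14, which entered no comparison, also differed in the 10 genes. In the library labelled WT, Zbtb16 was 3.89 FPKM, Fkbp5 164 FPKM, Tsc22d3 47.8 FPKM, Hsd11b1 6.15 FPKM and Errfi1 20.3 FPKM. In the library labelled Bmal1-/- the same genes were 0.0711, 71.7, 30.4, 1.80 and 40.8 FPKM. Zbtb16, Fkbp5, Tsc22d3 and Errfi1 in the library labelled WT lay within the range of the other Bmal1-/- libraries at 27 °C, and Hsd11b1 just above it (highest other value 6.10 FPKM). Dusp1 was 15.2 FPKM in the library labelled WT and 15.1 FPKM in the other.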
